A study of Mus musculus with 2 samples.

Results

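The genes described here are 10 surface receptors of perivascular macrophages, the macrophages that sit along brain vessels and belong to the border-associated macrophages (BAMs). They are the mannose receptor Mrc1 (CD206), the scavenger receptors Stab1, Cd163 and Msr1, the hyaluronan receptor Lyve1, the folate receptor Folr2, and the C-type lectins Clec10a, Cd209b, Cd209f and Cd209g. They were chosen by symbol, and all 10 were found among the 25827 genes of both deposited matrices. The data are 2 single-cell 3′ libraries (10x Chromium, v3.1 chemistry) from whole brain of adult mice, 1 from IL34LacZ/+ animals (heterozygous-labelled) and 1 from IL34LacZ/LacZ animals (homozygous-labelled). Both groups thus carry the lacZ allele of Il34, which encodes the CSF1 receptor ligand interleukin-34, and no library without it was analysed here. Per the labels, each library joins BAMs (CD11bhiF4/80+), microglia (CD11b+F4/80hi), endothelial cells (CD31+), astrocytes (ACSA-2+), and a CD13+ and/or CD140a+O4- gate for mural cells with fibroblasts. How many animals were pooled, their sex, and the proportions loaded from each gate are not stated in the labels.

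As background, scavenger receptors and macrophage lectins bind extracellular cargo such as modified lipoproteins, haptoglobin-haemoglobin complexes, hyaluronan and glycans, and most of them carry it into endosomes. Perivascular and leptomeningeal macrophages are known for high levels of CD206, CD163 and LYVE1, whereas microglia, the macrophages of the parenchyma, are known for P2ry12 and Tmem119. BAMs are commonly divided into cells with little and cells with much MHC class II, the peptide-presenting molecules of antigen-presenting cells.

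The heterozygous-labelled matrix held 87394167 UMIs (unique molecular identifiers, each counting 1 captured transcript) in 17168 barcodes, and the homozygous-labelled matrix 95505407 in 18858. After filtering, 8208 and 9619 cells remained, and 26 of their barcodes occurred in both libraries. With 1 library per genotype there was no replicate and no test between genotypes, and every interval below covers counting error only. Il34 itself was at 6.36 CPM (a gene's UMIs scaled to a common total; exact Poisson 95% interval 5.65 to 7.13) over all kept heterozygous-labelled cells and at 7.26 (6.55 to 8.02) over the homozygous-labelled ones. In neuron-like cells it was at 26.6 (18.3 to 37.4) and 18.1 (13.2 to 24.3) CPM. Where the lacZ cassette sits relative to the 3′ tags is not stated in the labels, so these values check neither label, and each direction below is between libraries as labelled. Cell types were rebuilt from marker genes. BAM-like cells numbered 1888 and 1818, and their markers Pf4 (4411 and 3905 CPM), Dab2 (1913 and 1885 CPM) and F13a1 (1189 and 1115 CPM) were high in both. Of the 10 markers listed for them, Mgst1 (52.8 and 53.2 CPM), Clec12a (134 and 156 CPM) and Ms4a6c (849 and 763 CPM) were higher in monocyte-like cells.

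The members lie on 6 chromosomes (GRCm38). Mrc1 is at chr2:14229392-14332057 on the plus strand, Cd163 at chr6:124304656-124330527 on the plus strand, and Clec10a at chr11:70156197-70170834 on the plus strand. Stab1 is at chr14:31139013-31168641, Folr2 at chr7:101839988-101857194 and Lyve1 at chr7:110850607-110863239, all on the minus strand. Msr1 is at chr8:39581685-39642673 on the minus strand. The 3 Cd209 members, mouse relatives of the human dendritic cell lectin DC-SIGN, share a stretch of 220053 bases of the same chromosome: Cd209b at chr8:3917655-3926844 and Cd209f at chr8:4102787-4105835 on the minus strand, and Cd209g at chr8:4134098-4137707 on the plus strand.

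Cd209f and Cd209g were the pair of members whose counts went together most closely over BAM-like cells, and of the members with a promoter entry they are the pair that reads alike. RefSeq promoter entries (GRCm38.p6) were matched for 7 of the 10 members, giving 8 entries since Folr2 has 2. These RefSeq starts differ from the gene ends above: that of Cd209g lies 638 bases inside the GENCODE gene, so its window is within the annotated gene, that of Cd209f lies 71 bases inside and that of Cd209b 3. In the 250 bases before the RefSeq start, Cd209f and Cd209g shared an unbroken identical run of 154 bases, and 193 of 210 aligned bases were identical (91.9%). The longest identical run in the other 27 pairs of entries was 7 to 10 bases. The windows of Cd209f (chr8:4105765-4106014, minus strand) and Cd209g (chr8:4134486-4134735, plus strand) are printed 5′ to 3′ with the identical run in capitals, and that of Cd209b (chr8:3926842-3927091, minus strand) is printed as the neighbour without it.
Cd209f: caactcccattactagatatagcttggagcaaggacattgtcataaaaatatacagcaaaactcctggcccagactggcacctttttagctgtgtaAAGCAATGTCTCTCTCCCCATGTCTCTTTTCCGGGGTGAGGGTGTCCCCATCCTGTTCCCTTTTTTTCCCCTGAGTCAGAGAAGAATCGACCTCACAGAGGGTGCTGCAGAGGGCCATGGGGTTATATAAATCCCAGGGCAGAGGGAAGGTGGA
Cd209g: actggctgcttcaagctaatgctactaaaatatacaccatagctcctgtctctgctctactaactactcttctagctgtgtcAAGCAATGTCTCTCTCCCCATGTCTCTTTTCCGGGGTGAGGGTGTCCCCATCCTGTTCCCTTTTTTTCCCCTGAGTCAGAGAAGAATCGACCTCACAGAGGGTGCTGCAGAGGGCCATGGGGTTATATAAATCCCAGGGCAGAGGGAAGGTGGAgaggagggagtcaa
Cd209b: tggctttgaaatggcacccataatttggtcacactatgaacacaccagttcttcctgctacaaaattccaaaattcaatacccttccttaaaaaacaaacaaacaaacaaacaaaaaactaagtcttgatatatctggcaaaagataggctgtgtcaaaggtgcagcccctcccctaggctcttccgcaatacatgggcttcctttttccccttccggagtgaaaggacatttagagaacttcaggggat
The shared run holds the letters TATATAA, which begin 31 bases before the start of Cd209f and 45 before that of Cd209g. This TATA-box motif, searched on both strands, also matched the opposite strand 1 base further upstream in an overlapping position. It occurred in 3.04% of all 32851 RefSeq promoter windows of that length and in no other member. The AP-1 motif TGAGTCA was in the same run, 83 and 97 bases before the starts, and on the opposite strand of 1 Folr2 entry. It occurred in 4.46% of all windows. The letters GAGGAAGT (PU.1, 2.44% of all windows) and TGCTGAC (MAF half-site, 3.81%) were in none of the 7 members' windows. The TATA-box and AP-1 letters were picked after the sequences were read. The 2 genes can be counted apart, since no stretch of 50 bases in the last 500 bases of their protein-coding transcripts (GENCODE vM21) occurs in a relative. 1 of the 5 Cd209f transcripts, not annotated as coding, shares such stretches with Cd209g. 4 of the 7 coding transcripts of Clec10a share them with its paralog Mgl2, so part of the Clec10a count is uncertain.

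The members were strong BAM-like genes, with 8070 CPM summed over the 10 in heterozygous-labelled cells and 7881 CPM in homozygous-labelled cells. Each UMI stands for 1 transcript end whatever the gene's length, so levels can be ordered across genes. Mrc1, which binds mannose and fucose on glycoproteins, stood at 3218 CPM (3179 to 3257) and 2939 CPM (2904 to 2975). Stab1, a scavenger receptor for modified lipoproteins, was next at 1601 CPM (1574 to 1629) and 1687 CPM (1660 to 1714). These 2 genes had at least 1 UMI in 95.3% and 91.5% (Mrc1) and in 87.1% and 85.7% (Stab1) of BAM-like cells thinned to 2000 UMIs each, 1442 and 1555 cells. Without thinning the shares were 96.0% and 93.7% for Mrc1 and 88.5% and 91.3% for Stab1.

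The middle of the order held 5 genes. Lyve1, better known from lymphatic endothelium, was at 808 and 652 CPM and Cd209f at 546 and 677 CPM, so they changed places between the libraries. Clec10a, a C-type lectin, was at 537 and 533 CPM, within counting error of Cd209f in the heterozygous-labelled library. Cd163, the haptoglobin-haemoglobin receptor, followed at 504 and 479 CPM, and Folr2 at 462 and 430 CPM. Cd209g (191 and 262 CPM), the class A scavenger receptor Msr1 (154 and 150 CPM) and Cd209b (49.2 and 71.9 CPM) were lowest, and the intervals of these 3 did not overlap in either library.

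A high level did not mean that most cells carried the gene. Cd209f and Clec10a had nearly the same heterozygous-labelled level, but 34.5% of thinned cells had a Cd209f UMI and 52.9% a Clec10a UMI. For unthinned Cd209f the mean was 2.35 UMIs per cell with an SD of 4.90 and a highest cell of 42 in the heterozygous-labelled library, and 3.34 with an SD of 7.05 and a highest cell of 63 in the homozygous-labelled one. Cd209f transcripts were thus concentrated in a minority of cells. Msr1 was the reverse, with 24.7% and 26.9% of thinned cells positive and never more than 8 or 10 UMIs in a cell. Cd209b had a UMI in 6.10% and 8.68% of thinned cells. In microglia-like cells of the same thinned depth the share was 0.806% and 0.624% for Cd163, 1.01% and 0.999% for Cd209f, and 1.41% and 0.749% for Msr1. No microglia-like cell had a Cd209b UMI, 0 of 755 and 0 of 1050. With a limit of 3 counts this allows shares of up to 0.397% and 0.286%, for counting error only. The median thinned BAM-like cell had a UMI of 5 of the 10 members in both libraries, and 35 and 61 cells had none.

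**Figure D1:**
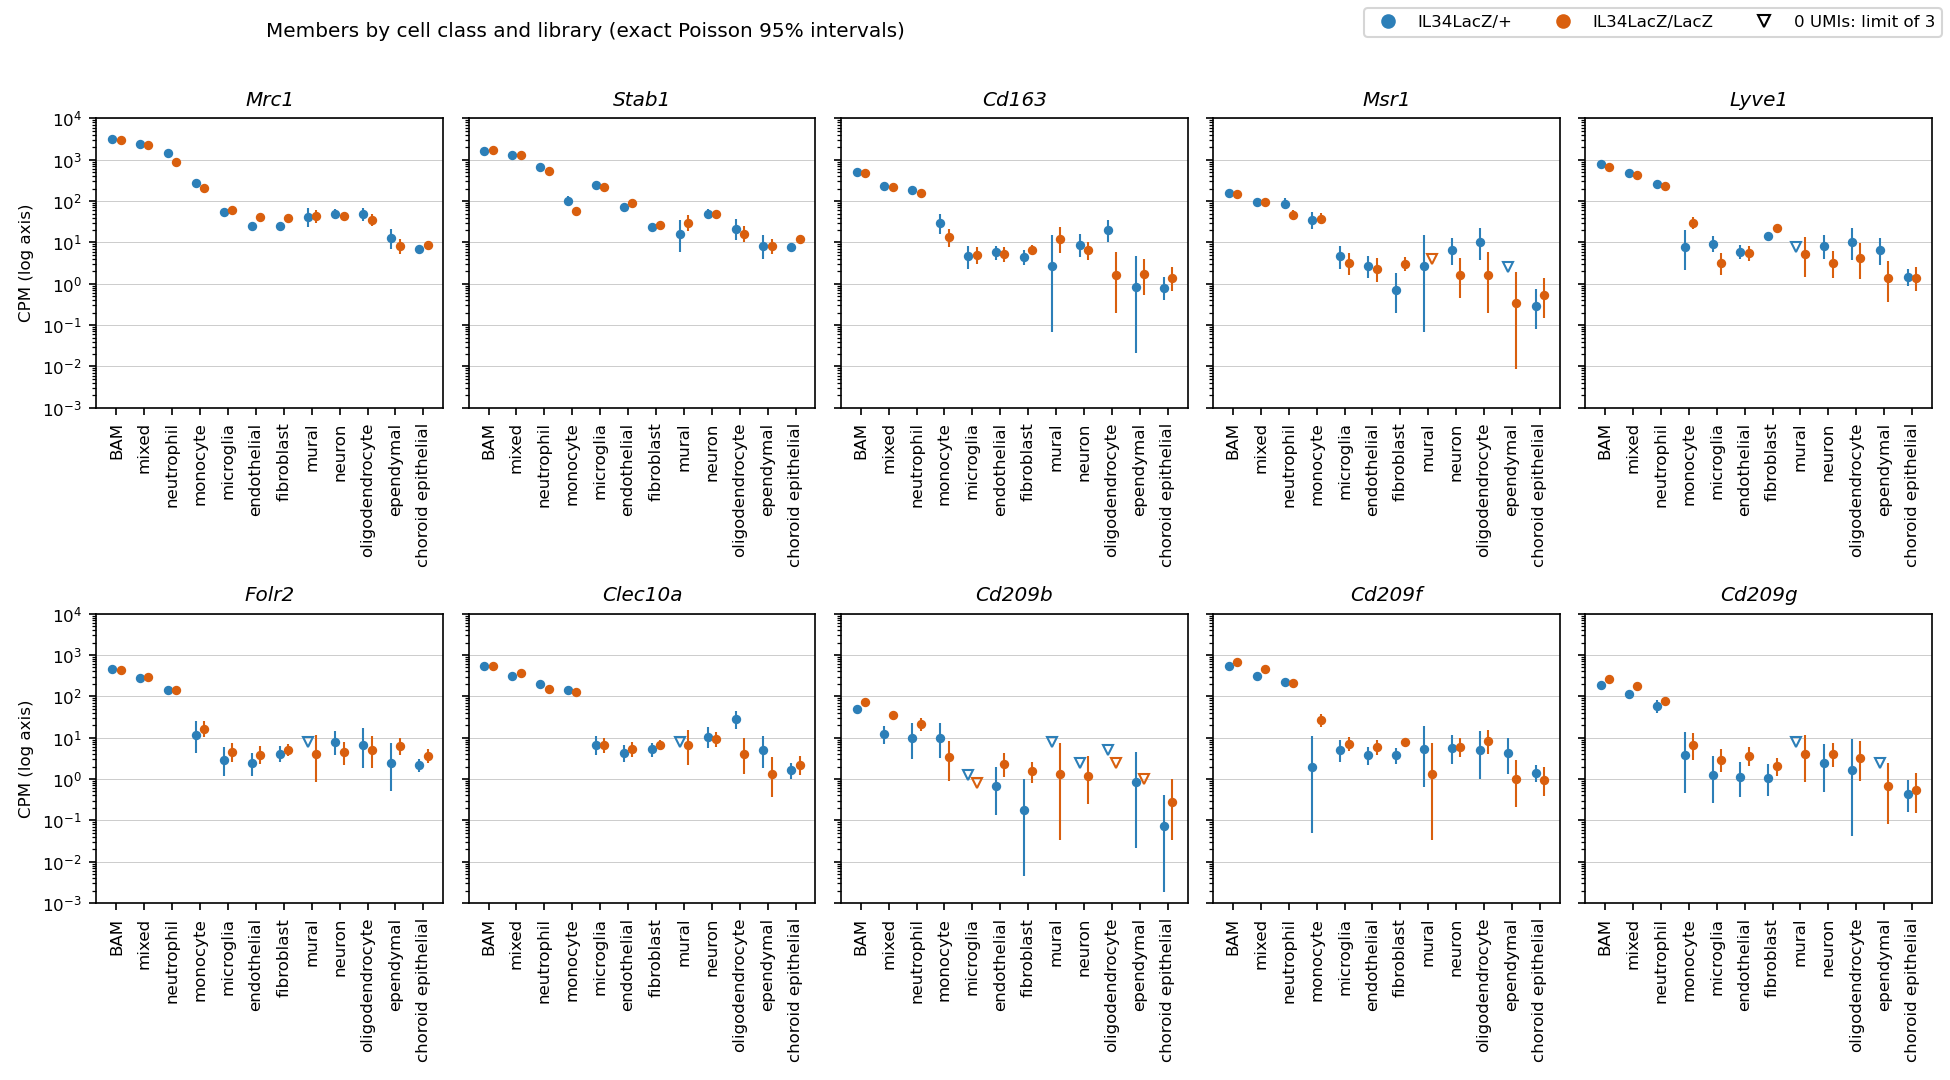
Level of each member in CPM (log axis) in 12 groups of cells, with exact Poisson 95% intervals; blue points are the heterozygous-labelled and orange points the homozygous-labelled library, and open triangles mark 0 UMIs at the limit of 3 counts. All 10 members are highest in BAM-like cells, and Stab1 is the member with the highest level in microglia-like cells (246 and 224 CPM).

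Outside the BAM-like cells the members were lower, least so in neutrophil-like cells and in a cluster that also held microglia markers. As a check on free RNA each member was set against the BAM markers Pf4, F13a1, Cbr2 and Ms4a7 in the same cells. A value of 1 on this relative scale means the same number of member UMIs per marker UMI as in BAM-like cells. This set of 4 markers was chosen after the data had been seen, since some of the 10 markers first listed are made by other cells too. Mrc1 stayed between 0.598 and 1.46 in the named classes of at least 50 cells per library, so its 25.2 and 40.6 CPM in endothelial-like cells and 24.4 and 39.1 CPM in fibroblast-like cells went with BAM marker UMIs at about the BAM ratio. With all 10 markers as the reference Mrc1 was at 0.360 and 0.461 in endothelial-like and at 0.232 and 0.355 in fibroblast-like cells.

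Stab1 had its highest relative values of the named classes in microglia-like and endothelial-like cells. In microglia-like cells it was at 246 CPM (226 to 266) and 224 CPM (209 to 239), with a UMI in 47.2% and 45.2% of cells, against 12.1% and 15.2% for Mrc1. Relative to the 4 BAM markers this was 13.5 (12.4 to 14.7) and 9.22 (8.59 to 9.88), and relative to all 10 markers it was 6.71 and 5.02. In endothelial-like cells Stab1 was at 70.2 CPM (62.7 to 78.3) and 88.1 CPM (79.5 to 97.3), which is 5.80 (5.17 to 6.48) and 3.34 (3.01 to 3.70) on the relative scale. Lyve1 was above the BAM ratio in fibroblast-like cells, at 14.5 and 21.7 CPM and 1.96 (1.56 to 2.44) and 2.61 (2.24 to 3.02) relative to the 4 markers. With all 10 markers as the reference these became 0.551 and 0.889, so the reference decides the side of 1 on which Lyve1 falls. Smaller excesses over the 4 markers were those of Stab1 in choroid epithelial-like (1.95 and 1.96) and neuron-like cells (1.72 and 1.98), and of Folr2 in choroid epithelial-like cells (1.96 and 2.31, on 30 and 27 UMIs). In homozygous-labelled ependymal-like cells Folr2 was at 4.35 on 19 UMIs. With all 10 markers Stab1 in neuron-like cells stayed above 1 (1.45 and 1.62), and the choroid and ependymal values were below 1.

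Monocyte-like cells (94 and 166) carried Clec10a at 140 CPM (110 to 177) and 130 CPM (110 to 152) and Msr1 at 35.0 and 37.5 CPM. On the relative scale Clec10a was at 2.77 (2.16 to 3.49) and 3.04 (2.57 to 3.56), and Msr1 at 2.41 (1.42 to 3.82) and 3.11 (2.26 to 4.18). Leaving out the 22.3% and 19.3% of these cells with at least 50 BAM marker UMIs per 10000 left Clec10a at 139 and 140 CPM. Mrc1 was at 274 and 207 CPM in all monocyte-like cells and at 178 and 147 CPM without those cells. With all 10 markers the Clec10a values were 0.908 and 0.882 and those of Msr1 0.790 and 0.903, so for both genes the reference decides the side of 1.

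Neutrophil-like cells (65 and 124) had the next highest Mrc1 level of the named classes, at 1468 and 892 CPM. BAM markers were high there too, at 5254 and 3843 CPM summed over the 10 listed, and Mrc1 was at 1.24 (1.15 to 1.34) and 1.11 (1.05 to 1.17) on the relative scale. Cells with at least 50 BAM marker UMIs per 10000 made up 47.7% and 29.8% of the class and held 89.5% and 77.7% of its member UMIs. An unnamed cluster of 177 and 244 cells carried microglia markers (12268 and 10838 CPM) with BAM markers (7422 and 7784 CPM), at a median of 7271 and 7285 UMIs per cell against 3535 and 3961 in BAM-like cells. Its Mrc1 level was 2341 and 2229 CPM. Doublets were removed with Scrublet, and whether doublets remain in these clusters was not tested.

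**Figure D2:**
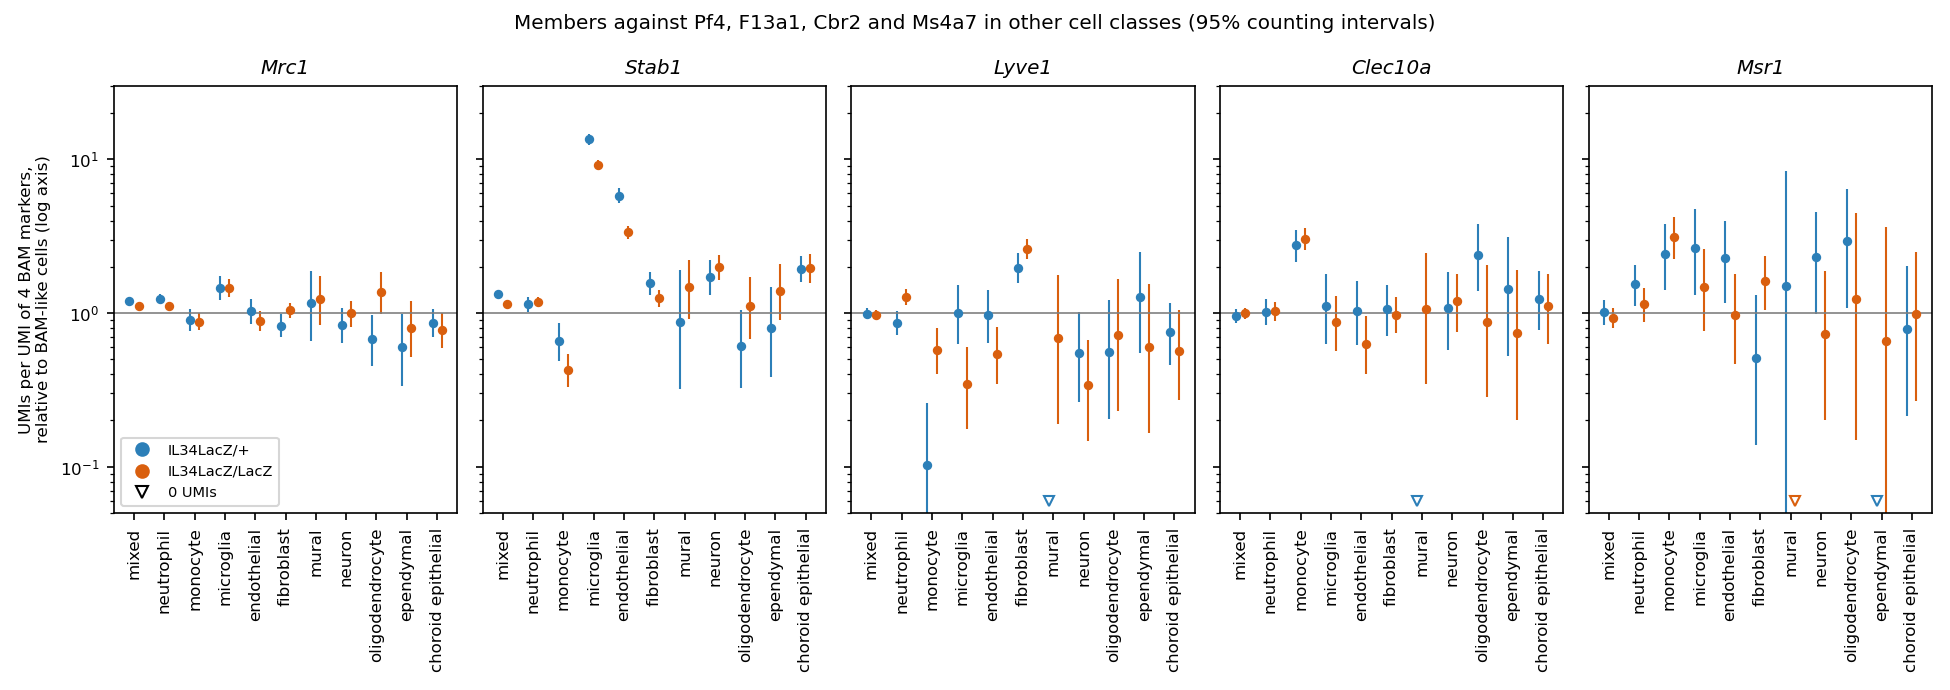
UMIs of 5 members per UMI of the BAM markers Pf4, F13a1, Cbr2 and Ms4a7, relative to BAM-like cells of the same library (log axis, 95% counting intervals), in 11 groups of cells; triangles mark 0 UMIs. Mrc1 stays near 1, Stab1 reaches 13.5 and 9.22 in microglia-like cells, and Clec10a is at 2.77 and 3.04 in monocyte-like cells.

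BAM-like cells fell into 4 clusters, drawn with the 10 members kept out of the variable genes and named by their leading gene that is no member. The largest is called Fcna-led (910 and 828 cells), but Cd209f, Cd163 and Cd209b stood before Fcna among its leading genes, and 8 of its 10 leading genes were members. The next was led by the chemokine gene Ccl7 (606 and 478 cells), and a further cluster was high in MHC class II genes (360 and 490 cells, 19.1% and 27.0% of BAM-like cells). A Cxcl1-led cluster held 12 and 22 cells. Chemokine and immediate-early transcripts are commonly raised by tissue dissociation, and the summed immediate-early genes stood at 42243 and 42258 CPM in the Ccl7-led cluster against 15272 and 14796 CPM in the Fcna-led one. The Ccl7-led cluster was also the one enriched in interferon-stimulated genes, by 2.03 on the log2 scale over the other BAM-like clusters. Their summed level there was 1561 CPM in the heterozygous-labelled and 699 CPM in the homozygous-labelled library, against 203 and 132 CPM in the Fcna-led cluster. Mrc1 was nearly even between these 2 clusters, at 3772 and 3913 CPM in the Fcna-led and at 3561 and 3685 CPM in the Ccl7-led one. Stab1 was higher in the Fcna-led cluster, at 2033 and 2444 CPM against 1571 and 1837 CPM.

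All 10 members were lower in the MHC-II-high cluster than in the other BAM-like cells, in both libraries. With a rule of at least 2-fold, at least 100 UMIs and an interval without 1, 8 of 10 were lower in the heterozygous-labelled and 10 of 10 in the homozygous-labelled library. Over all genes 2% of 7385 and 3.64% of 7799 were lower by the same rule. The members' median ratio was 0.398 and 0.281, beside 0.947 and 0.942 for all genes tested. The cells were grouped by many genes that go with these receptors, so this split is a description.

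The lectins of the Cd209 group and Lyve1 differed most. Cd209f was at 173 against 663 CPM in the heterozygous-labelled library, 3.84-fold lower, and at 155 against 933 CPM in the homozygous-labelled library, 6.02-fold lower. Cd209g was 4.75-fold and 5.16-fold lower, and Cd209b 4.17-fold and 8.08-fold lower, the latter on 28 and 37 UMIs in the MHC-II-high cells. Lyve1 was at 286 against 972 CPM and at 172 against 887 CPM, 3.40-fold and 5.17-fold lower. Mrc1 was 2.02-fold and 3.16-fold lower, Cd163 2.67-fold and 4.06-fold, Clec10a 2.37-fold and 3.13-fold, and Folr2 2.04-fold and 2.72-fold. Stab1 was 1.86-fold and 3.01-fold lower and Msr1, with the smallest difference in both libraries, 1.60-fold and 2.01-fold. These 2 were the members that missed the rule in the heterozygous-labelled library. Markers of other cells moved with this split: microglia markers were at 4392 and 5357 CPM in the MHC-II-high cluster against 2514 and 2329 CPM elsewhere, and monocyte markers at 276 and 483 CPM against 53.3 and 45.5 CPM. Their part in the result was not tested. Without cells with more than 1 UMI of 4 microglia markers or any UMI of 4 monocyte markers, every member stayed lower in both libraries. Some differences were smaller: in the heterozygous-labelled library Mrc1 was at 1847 against 3498 CPM, Folr2 at 325 against 529 and Msr1 at 117 against 176. Msr1 was at 142 against 183 CPM in the homozygous-labelled one. The counts by the 2-fold rule above thus hold for the whole clusters only.

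Binning the BAM-like cells by MHC class II content instead of by cluster put the lowest member levels in the cells with the most MHC class II. The class itself comes from the clusters, and the MHC-II-high cluster is among the cells binned, so this is no separate check. Thinned BAM-like cells were binned by their summed UMIs of H2-Aa, H2-Ab1, H2-Eb1, H2-DMa, H2-DMb1 and the invariant chain gene Cd74, since quintiles were tied at 0. The summed members went stepwise from 9518 CPM in cells with 0 such UMIs to 8788 with 1 to 4, 6880 with 5 to 19 and 3410 with 20 or more in the heterozygous-labelled library. The homozygous-labelled series was 10071, 9033, 6752 and 2889 CPM. Lyve1 was at 1031 and 937 CPM in the first bin and already at 484 and 296 CPM in that of 5 to 19. Clec10a held its level up to that bin, with 638, 542 and 658 CPM in the first 3 bins of the heterozygous-labelled and 666, 625 and 650 CPM of the homozygous-labelled library. It was at 282 and 259 CPM in the last bin.

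**Figure D3:**
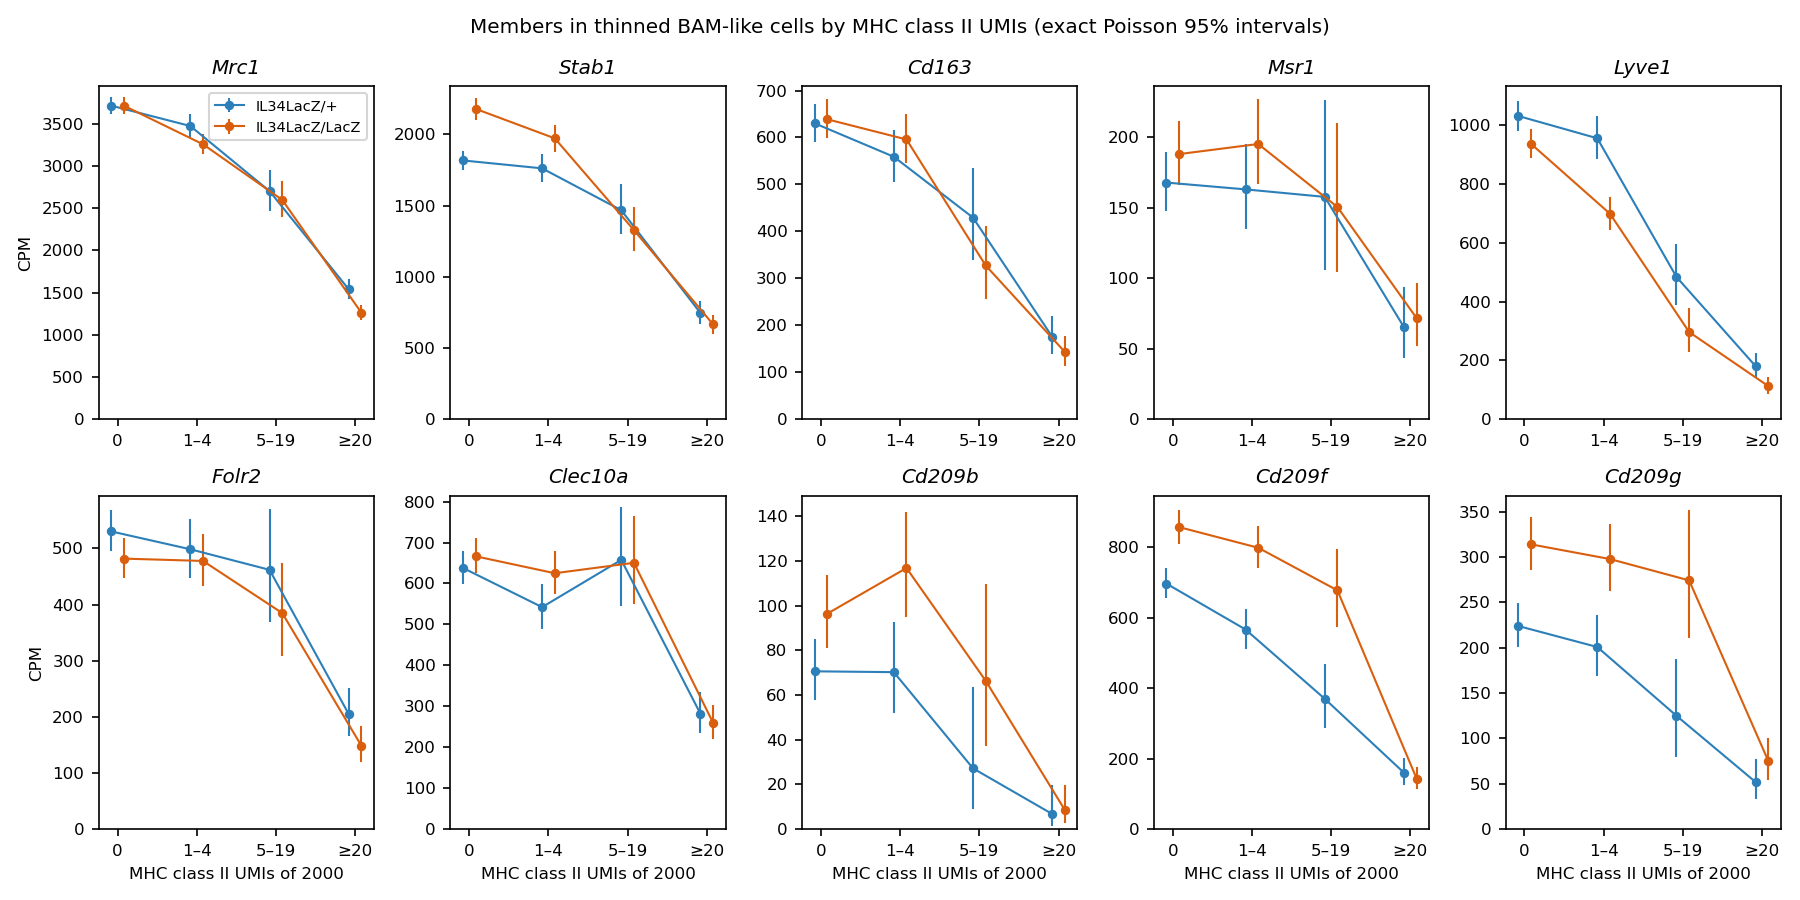
Level of each member in CPM in thinned BAM-like cells with 0, 1 to 4, 5 to 19 and 20 or more MHC class II UMIs of 2000 (772, 356, 92 and 222 heterozygous-labelled cells in blue; 721, 428, 113 and 293 homozygous-labelled cells in orange), with exact Poisson 95% intervals. Every member is lowest in the last bin, and the ratios between the libraries of Cd209f and Cd209g are largest in the bin of 5 to 19 (1.83 and 2.19).

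Between the libraries the members of BAM-like cells did not move as a block. No member passed the rule of at least 1.5-fold with an interval without 1, beside 3% of the 9410 genes tested in either direction. Ratios are given as homozygous-labelled over heterozygous-labelled. The 3 Cd209 genes were higher, with ratios of 1.46 (1.29 to 1.66) for Cd209b, 1.37 (1.29 to 1.46) for Cd209g and 1.24 (1.19 to 1.29) for Cd209f. Lyve1 was lowest at 0.807 (0.779 to 0.836), and Mrc1 was at 0.913 (0.898 to 0.929). Cd163, Folr2, Clec10a, Msr1 and Stab1 lay between 0.931 and 1.05. Over 15 alternatives the directions of Lyve1, Stab1 and the 3 Cd209 genes never changed, while those of Mrc1 (5), Cd163 (6), Folr2 (6), Msr1 (9) and Clec10a (12) did. These whole-class ratios pool clusters whose shares differ between the libraries, as the larger MHC-II-high share of the homozygous-labelled library shows. In these sorted libraries, loading and the makeup of the class cannot be told apart from the label.

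Within clusters the libraries differed in opposite directions. In the MHC-II-high cluster 9 of 10 members had a ratio below 1, 6 of them with an interval wholly below 1. In the other BAM-like cells 9 of 10 had a ratio above 1, 7 of them with an interval wholly above 1. Over all genes tested the median log2 ratio was 0.0176 in the MHC-II-high cluster and 0.0362 in the other cells. How many of all genes had an interval clear of 1 was not counted, so these counts of members are a description. Mrc1 was at 1812 and 1201 CPM in the MHC-II-high cells, a ratio of 0.662 (0.632 to 0.694), and at 3660 and 3793 CPM in the others, a ratio of 1.04 (1.02 to 1.06). Stab1 had ratios of 0.742 (0.697 to 0.789) and 1.20 (1.17 to 1.23), Cd163 of 0.708 (0.619 to 0.809) and 1.07 (1.03 to 1.12), and Clec10a of 0.836 (0.743 to 0.941) and 1.10 (1.06 to 1.15). For these 4 genes the intervals of the 2 ratios lay on opposite sides of 1. How many of all genes do so was not counted. The difference itself was not tested, as there is 1 library per label.

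Lyve1 and Cd209g did not follow that split. Lyve1 was lower in the homozygous-labelled library on both sides, with 286 and 172 CPM in the MHC-II-high cells (0.601, 0.532 to 0.679) and 972 and 887 CPM elsewhere (0.913, 0.880 to 0.947). Cd209g was higher on both sides, with 49.5 and 69.0 CPM (1.39, 1.09 to 1.80) and 235 and 356 CPM (1.52, 1.42 to 1.62). Cd209b was at 60.1 and 101 CPM outside the MHC-II-high cluster, a ratio of 1.68 (1.48 to 1.92), and Cd209f at 663 and 933 CPM, a ratio of 1.41 (1.35 to 1.46). By the 1.5-fold rule Mrc1 and Lyve1 were lower in the MHC-II-high cluster, where 4.26% of 5867 genes passed in either direction and 1.28% in that one. Cd209b and Cd209g were higher in the other cells, where 2.17% of 8536 genes passed in either direction and 1.09% in that one. The directions of Msr1 in the MHC-II-high cells and of Folr2 in the others changed in 2 of 6 alternatives each, and those of Cd209b in the MHC-II-high cells and of Cd163 in the others in 1 of 6.

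The Cd209 genes were higher in the homozygous-labelled library in both the Fcna-led and the Ccl7-led cluster, but different ones passed the rule. In the Fcna-led cells Cd209b had the largest ratio, 69.0 and 131 CPM (1.90, 1.60 to 2.25), and was the only member past the rule, beside 1.93% of 6680 genes in either direction and 1.33% in that one. In the Ccl7-led cells Cd209f (611 and 958 CPM; 1.57, 1.48 to 1.67) and Cd209g (225 and 376 CPM; 1.67, 1.52 to 1.85) passed it, beside 2.93% of 6346 genes in either direction and 1.37% in that one. Lyve1 was below 1 in both, at 0.947 and 0.891, with intervals wholly below 1. In the Ccl7-led cells the interferon-stimulated genes (1561 and 699 CPM) moved with the label, and their part was not tested. Whether the ratios differ between these clusters was not tested.

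**Figure D4:**
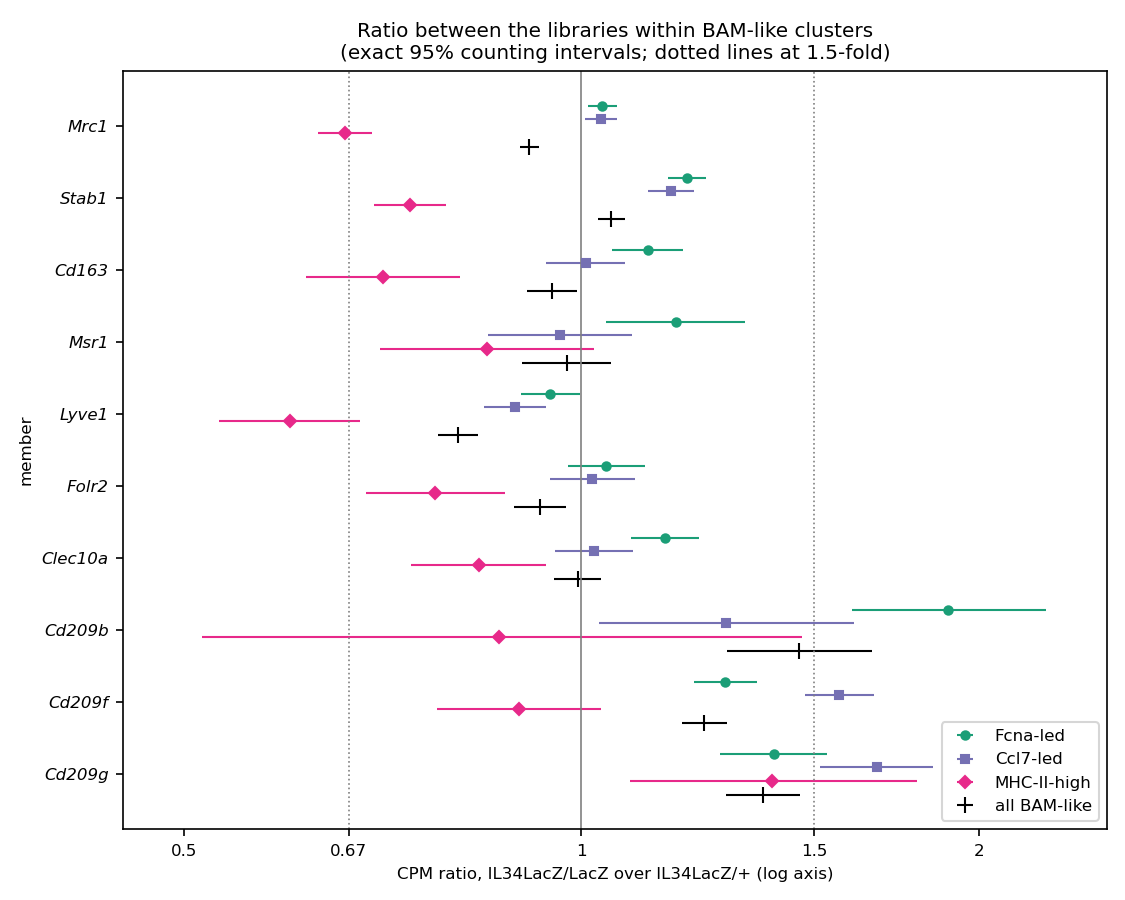
CPM ratio of each member, homozygous-labelled over heterozygous-labelled (log axis), in the Fcna-led, Ccl7-led and MHC-II-high clusters and in all BAM-like cells, with exact conditional binomial 95% intervals; dotted lines mark 1.5-fold. Mrc1, Stab1 and Cd163 lie below 1 in the MHC-II-high cluster (0.662, 0.742 and 0.708) and above 1 in the Fcna-led cluster (1.04, 1.20 and 1.12); the direction of Msr1 in the MHC-II-high cluster changed in 2 of 6 alternatives.

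The MHC-II-high clusters of the libraries were not alike in other respects. Their microglia markers were at 4392 and 5357 CPM and their monocyte markers at 276 and 483 CPM. When cells with more than 1 UMI of 4 microglia markers or any UMI of 4 monocyte markers were left out, 146 of 360 and 189 of 490 cells remained. The Mrc1 ratio was then 0.656 (0.597 to 0.721), that of Lyve1 0.576 (0.449 to 0.737) and that of Stab1 0.823 (0.728 to 0.930). Others moved: Cd209f went from 0.897 to 0.533 (0.381 to 0.742), Msr1 turned to 1.21 (0.869 to 1.70), and the interval of Clec10a came to include 1 (0.788, 0.612 to 1.02). In the bin of 20 or more MHC class II UMIs the differences were smaller, with ratios of 0.820 (0.738 to 0.911) for Mrc1, 0.625 (0.444 to 0.877) for Lyve1 and 0.893 (0.769 to 1.04) for Stab1. There the intervals of Cd163 (0.592 to 1.13) and Clec10a (0.722 to 1.18) included 1. In cells with 0 MHC class II UMIs Mrc1 was at 3713 CPM in both libraries, with a ratio between 0.963 and 1.04 by its interval, and the intervals of Cd163 and Clec10a included 1 as well. There Stab1 had a ratio of 1.20 (1.14 to 1.26), Cd209f of 1.23 (1.13 to 1.34) and Lyve1 of 0.909 (0.844 to 0.978). In the bin of 5 to 19, Cd209f was at 370 and 677 CPM (1.83, 1.37 to 2.47) and Cd209g at 125 and 274 CPM (2.19, 1.34 to 3.71).

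Cells carrying one Cd209 gene tended to carry the others. Over thinned BAM-like cells the Spearman correlation of Cd209f with Cd209g was 0.55 over 1442 heterozygous-labelled cells and 0.59 over 1555 homozygous-labelled ones, the highest of the 45 pairs of members in each library. Of the cells with a Cd209g UMI, 81.9% and 83.9% also had a Cd209f UMI, which 34.5% and 37.9% of all cells had. Of the cells with a Cd209f UMI, 47.5% and 54.0% had a Cd209g UMI. Of the cells with a Cd209b UMI, 75.0% and 81.5% had one of Cd209f, and 13.3% and 18.7% of Cd209f cells had one of Cd209b. Cells share library and thinned depth, and these values carry no test. The next pairs in the heterozygous-labelled library were Mrc1 with Stab1 (0.41 and 0.50), Lyve1 with Folr2 (0.33 and 0.28) and Mrc1 with Lyve1 (0.32 and 0.35). Mrc1 was the member that ran most against the summed MHC class II genes, at -0.36 and -0.43.

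**Figure D5:**
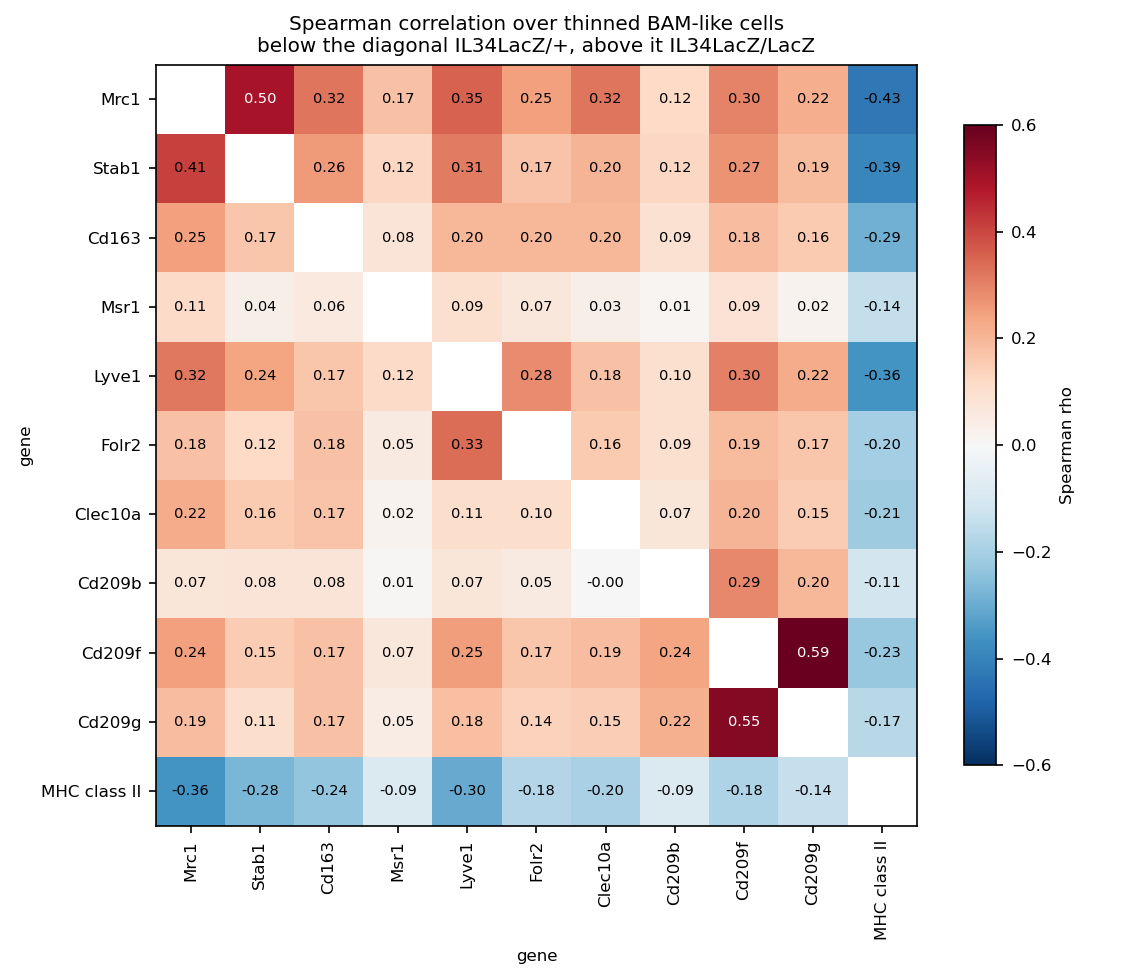
Spearman correlation between members, and with summed MHC class II UMIs, over BAM-like cells thinned to 2000 UMIs; the heterozygous-labelled library is below and the homozygous-labelled library above the diagonal. Cd209f with Cd209g is the highest pair (0.55 and 0.59), and every member runs against MHC class II, from -0.36 and -0.43 for Mrc1 to -0.09 and -0.11 for Cd209b.

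Among the 2670 genes with at least 1000 UMIs in BAM-like cells, those most like each member, by the lower of the correlations in the 2 libraries, were mostly other members or known BAM genes. Mrc1 was most like Stab1, the endocytic adaptor gene Dab2 (0.36 and 0.46) and the chemokine gene Pf4 (0.36 and 0.45). Stab1 was most like Mrc1, Dab2 (0.31 and 0.42) and the transcription factor gene Maf (0.30 and 0.30). Cd163 was most like Mrc1, Dab2 and F13a1, and Clec10a was most like F13a1, Mrc1 and Dab2. Lyve1 was most like Mrc1, F13a1 (0.30 and 0.37) and Folr2, while Folr2 was most like Lyve1, F13a1 (0.20 and 0.31) and Cbr2. Each Cd209 member had Cd209a, a neighbour on the same chromosome, among its 3 nearest genes, with 0.35 and 0.38 for Cd209f, 0.30 and 0.29 for Cd209b, and 0.28 and 0.32 for Cd209g. For Msr1 the nearest gene was Mrc1 at only 0.11 and 0.17.

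Other genes of these families were read from listed sets. Of 26 other C-type lectins 16 were measured in BAM-like cells, and 2 were higher in the homozygous-labelled library by the 1.5-fold rule: Cd209d (9.74 and 15.0 CPM, ratio 1.54) and Clec4d (6.04 and 10.7 CPM, ratio 1.77). Of all genes 1.99% were higher and 1.01% lower by that rule. The set's median ratio was 1.04, beside 1.02 for all genes. Clec4d was at 11.9 and 21.6 CPM in the MHC-II-high cells against 4.21 and 5.31 CPM elsewhere. Cd209d was at 8.77 and 2.03 CPM there against 10.1 and 21.4 CPM. Cd209a was at 159 and 229 CPM, a ratio of 1.44 (1.34 to 1.55), so the 5 Cd209 genes with enough UMIs had ratios between 1.24 and 1.54. The other 2 were under the 100 UMIs needed, Cd209e with 10 and 12 UMIs and Cd209c with 4 and 20. The highest lectins of the set, Clec4a2 (388 and 346 CPM) and Mgl2 (372 and 353 CPM), had ratios of 0.892 and 0.949. Mgl2 was also near even between MHC-II-high and other BAM-like cells, at 354 against 378 CPM and 337 against 361 CPM, unlike its paralog Clec10a.

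Of 18 other scavenger receptors 9 were measured, with a median ratio of 0.995. The only one past the rule was Cd44, a hyaluronan receptor, at 9.37 and 19.3 CPM (2.06, 1.56 to 2.73). Cd44 was at 29.4 and 50.7 CPM in the MHC-II-high cells against 3.08 and 3.82 CPM elsewhere. Cd68 (786 and 764 CPM) and Cd14 (580 and 523 CPM) were the highest of that set. Of 11 measured siglecs and galectins, Lgals3 (galectin-3) was higher at 30.8 and 94.6 CPM (3.07, 2.66 to 3.55), and it was an MHC-II-high gene, at 108 and 268 CPM there against 6.48 and 9.46 CPM elsewhere. Of 12 measured efferocytosis genes Havcr2 was higher at 14.2 and 27.7 CPM (1.95), while C1qa (7853 and 7433 CPM) and C1qb (5953 and 5852 CPM) were the highest. Havcr2 was at 42.3 and 72.7 CPM in the MHC-II-high cells against 5.35 and 5.64 CPM elsewhere. The part of the larger MHC-II-high share of the homozygous-labelled library in the ratios of Cd44, Lgals3 and Havcr2 was not tested. None of 12 haem and iron genes and none of 20 other BAM identity genes passed the rule, and the median ratio of the latter was 0.936. Of 18 immediate-early genes Klf2 was lower at 1184 and 768 CPM (0.649), and the set's median ratio was 0.866. That set moved between the libraries beside the members, and its part in their ratios was not tested.

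The other BAM identity genes shared the split by MHC class II in part, while few of the other scavenger receptors and C-type lectins did. In the MHC-II-high cluster 1 and 1 of 8 and 9 measured other scavenger receptors were at least 2-fold lower (Colec12 in both libraries), and 2 and 3 of 13 and 14 other C-type lectins were, Cd209a and Clec4n in both libraries and Cd209d in the homozygous-labelled one. Clec7a (169 against 69.7 and 156 against 63.9 CPM) and Clec12a (244 against 99.7 and 282 against 93.5 CPM) were at least 2-fold higher there, as were 2% and 3.59% of all genes. Of the 20 other BAM identity genes 6 and 12 were at least 2-fold lower, among them Pf4, F13a1 and Fcna in both libraries. Over all genes 2% and 3.64% were lower by that rule. The median ratio of the BAM identity genes was 0.603 and 0.475, beside 0.947 and 0.942 for all genes tested.

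In microglia-like cells only Mrc1 and Stab1 had the 100 UMIs needed. Stab1 had a ratio of 0.911 (0.818 to 1.01) and Mrc1 of 1.15 (0.920 to 1.44), and neither passed the 1.5-fold rule, beside 3% of 6896 genes. In monocyte-like cells Stab1 was lower in the homozygous-labelled library, at 99.3 CPM (73.9 to 131) and 57.5 CPM (44.7 to 72.7), a ratio of 0.579 (0.397 to 0.849), beside 5.66% of 2228 genes in either direction and 1.35% in that one. Its level there was below the BAM ratio, at 0.657 and 0.425 relative to the 4 BAM markers, and without the cells of high BAM marker content it was 22.0 and 22.3 CPM.

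Among the other classes and clusters with at least 50 cells per library, Mrc1 was higher in the homozygous-labelled library in endothelial-like cells (1.61, 1.27 to 2.06), beside 2.79% of 8640 genes in either direction and 1.68% in that one. It was also higher in fibroblast-like cells (1.60, 1.31 to 1.97), beside 3.76% of 10265 genes and 2.6% in that direction. Stab1 was higher in choroid epithelial-like cells (1.63, 1.22 to 2.19), beside 3.6% of 8799 genes and 3.32% in that direction. In neutrophil-like cells Mrc1 (0.608, 0.555 to 0.666) and Msr1 (0.542, 0.365 to 0.810) were lower, beside 6.6% of 2544 genes and 3.26% in that direction. Cd209g was higher in the cluster with microglia and BAM markers (1.54, 1.27 to 1.87), beside 2.53% of 5014 genes and 1.52% in that direction. No measured member passed the rule in neuron-like cells, where 6.14% of all genes did, or in an unnamed Bche-led cluster, where 2.77% did. The summed 10 BAM markers moved in the same direction in endothelial-like (261 and 346 CPM), fibroblast-like (392 and 433 CPM), choroid epithelial-like (198 and 234 CPM) and neutrophil-like cells (5254 and 3843 CPM), and their part was not tested. Leaving out cells with at least 50 BAM marker UMIs per 10000 brought the libraries closer. Mrc1 was then at 25.2 and 32.6 CPM in endothelial-like and at 23.2 and 32.6 CPM in fibroblast-like cells. In neutrophil-like cells it was at 391 and 334 CPM, and Msr1 at 16.5 and 16.6 CPM on 4 and 15 UMIs. No choroid epithelial-like cell had that many.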

How the data were processed

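The authors' deposited matrices hold raw UMI counts for each gene in each barcode. Per the file headers they came from Cell Ranger 5.0.0, and per the submitters' processing notes from alignment to GRCm38.p6 (mm10). Both libraries had a lowest total of 500 UMIs per barcode. Cells were kept with at least 1000 UMIs, 500 genes and at most 10% mitochondrial UMIs. Scrublet doublets (expected rate 10%), 6.44% and 6.46% of barcodes, were removed. Cells of both libraries were clustered with scanpy 1.11.5 and leidenalg 0.10.2 (2000 variable genes without the 10 members, 30 principal components, 20 neighbours, resolution 1, seed 1), without integration, into 31 clusters. 5 of them stayed unnamed. Clusters were named where listed markers averaged a log2 enrichment of 2 or more, led the next type by 1, and included 3 enriched at least 2-fold. At least 1 marker also had to be among the 50 leading genes, with no other type holding more of the leading 50 or 10. The Bche-led cluster scored highest for fibroblasts but had no fibroblast marker among them, so it stayed outside the fibroblast-like class. A BAM-like cluster was called MHC-II-high where MHC class II genes, with Ciita, Klra2 and Cd52, averaged a log2 enrichment of 1 or more. These thresholds were set with the data in view.

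Counts were summed per class and library and given as CPM with exact Poisson 95% intervals, ratios with exact conditional binomial intervals, and shares of cells by Clopper-Pearson. The rule between libraries was at least 100 UMIs, 1.5-fold and an interval without 1, and within a library 2-fold. Such calls describe these libraries, not genotypes. The script for this rule was tested on simulated data. For shares and correlations, each cell was thinned to 2000 UMIs and shallower ones were left out (446 and 263 BAM-like cells). Gene positions came from GENCODE vM21, which held 99.5% of the features, and promoters from RefSeq. The members and lists were chosen with earlier results of these data known. All members, and of each list the called genes and those of highest CPM, are named. Other listed genes named, the MHC class II bins, the 4-marker reference and the within-cluster alternatives were chosen after their values were seen.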

Additional observations from a re-analysis of the deposited data

Results flagged for a closer look

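4 members differed between the libraries in opposite directions in the MHC-II-high and the other BAM-like cells, with intervals on opposite sides of 1. The ratio between the libraries in the MHC-II-high cells, divided by that in the other BAM-like cells, was 0.639 for Mrc1, 0.659 for Cd163, 0.617 for Stab1 and 0.758 for Clec10a. The difference was not tested, since each label has 1 library. The MHC-II-high share of BAM-like cells (19.1% and 27.0%) and the microglia markers in that cluster (4392 and 5357 CPM) moved with it, and their part was not tested. In 6 alternatives each, run for both sides, the direction changed only for Cd163 in the other BAM-like cells, at a mitochondrial limit of 5%. The intervals held less well: without cells carrying microglia or monocyte UMIs that of Clec10a in the MHC-II-high cells included 1 (0.612 to 1.02). In cells with 20 or more MHC class II UMIs those of Cd163, Stab1 and Clec10a included 1, and in cells with none those of Mrc1, Cd163 and Clec10a did. Other BAM genes had such directions too: Dab2 was at 1117 and 769 CPM in the MHC-II-high cells and at 2164 and 2432 CPM elsewhere. F13a1 was at 623 and 425 CPM and at 1367 and 1453 CPM. Ms4a7 was instead higher on both sides (1133 and 1371 CPM, 1453 and 1590 CPM). The share of all genes with this pattern was not counted, so it is not shown to be particular to the members.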

How the results depend on the processing

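No paired analysis was possible because each genotype has 1 library, and for the same reason no replicate could be left out. The count of members past 1.5-fold between the libraries in BAM-like cells was 0. It became 1 with a mitochondrial limit of 20%, with at least 500 UMIs per cell, with doublets kept and without the interferon-enriched (Ccl7-led) cluster. It became 2 at Leiden resolution 0.5, with the members allowed among the variable genes, as a mean over clusters of at least 200 cells, and without the MHC-II-high cluster, the last chosen after seeing the data. Cd209b was the member past it in each of these, joined by Cd209g where there were 2. It stayed at 0 in the other 9 alternatives. In microglia-like cells the count was 0 and became 1 with at least 20 UMIs per gene, where Lyve1 (22 and 12 UMIs, ratio 0.347) came to be measured. The counts of members at least 2-fold lower in MHC-II-high cells ranged from 6 to 10 over all alternatives that gave a value. With a mitochondrial limit of 20%, at least 500 UMIs, resolution 0.5, or the members among the variable genes, no BAM-like cluster was named MHC-II-high and no value could be given. Depth limits Cd209b most, with 28 and 37 UMIs in MHC-II-high cells, and Msr1 outside macrophages.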

Other observations

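At resolution 2 the clusters whose best marker score was that of BAMs included a Cxcl10-led one with interferon genes (157 and 79 cells). That cluster did not meet the naming rule and was not counted as BAM-like at that resolution. Another was a Ccl8-led cluster (425 and 283 cells). In the Cxcl10-led cells Mrc1 was at 3344 and 3602 CPM, Clec10a at 681 and 618 CPM, Msr1 at 169 and 109 CPM and Cd209b at 47.6 and 34.7 CPM, the last on 38 and 15 UMIs. The homozygous-labelled values of Msr1 and Cd209b lie below those of all BAM-like cells outside the MHC-II-high cluster (180 and 101 CPM). Lyve1 was at 880 and 516 CPM in the Cxcl10-led cells and at 799 and 565 CPM in the Ccl8-led cells, against 1032 and 999 CPM in the cluster led by Cd209f. Cd209b was at 54.5 and 115 CPM in the Ccl8-led and at 74.3 and 131 CPM in the Cd209f-led cells.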
